A study of Mus musculus with 5375 samples.

Results

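The cells described are all endothelial cells (ECs) of the lung that were kept on day 1.5 and on day 3.5 after tumor cells (TCs) had been injected, and the question is what in them returned towards the level of uninjected mice between both days and what went on rising. The later day held 699 of these ECs and the earlier 941, so that 1640 of the 2479 kept ECs of the series were compared, and the 839 ECs of day 0 stand beside them as the baseline. A cell was a member when the deposited table of filtered ECs held it under one of these days. The authors had sorted 1152 and 1151 ECs at these times and had removed the remainder.

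The study followed 4T1-GFP cells, from a breast tumor of the mouse and carrying a green fluorescent protein, and the lung vessels they arrest in. Female BALB/c mice aged 8 to 12 weeks received these cells through the tail vein in 2 injections, stained with a CellTrace dye, and lungs were collected 1.5 or 3.5 days later. Uninjected mice gave day 0. ECs were sorted singly as CD31-positive cells lacking CD45, PDPN, LYVE1 and TER119, and each cell was sequenced by Smart-seq2 without molecular identifiers. Mice of day 1.5 were also given a labelled antibody to H-2Kd intravenously shortly before collection, which marks the TCs still inside vessels. The mice were m1, m2, m3 and m4 on day 0, m5, m6 and m7 on day 1.5 and m9, m10 and m11 on day 3.5, each a separate animal and 1 replicate. How near each EC had lain to a TC is not given by the sort.

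Lung ECs are mostly capillary cells, of which the general capillary cells (gCaps) act as progenitors and the aerocytes (aCaps) serve gas exchange. Like other tissues they carry a circadian clock, in which CLOCK and BMAL1 drive the Per and Cry repressors, the REV-ERB receptors Nr1d1 and Nr1d2, and the output factors Dbp, Tef and Hlf, so that these genes peak and fall within each day. Glucocorticoid hormone from the adrenal gland acts on the same cells through its receptor, whose well-known targets include Tsc22d3, Fkbp5, Zbtb16, Klf9 and Per1. An EC that makes more secreted protein needs more of the chaperones of the endoplasmic reticulum (ER), and interferon induces chemokines such as Cxcl10.

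Some promoter sequences of the groups described are shown, so that the members can be compared by a known element. They are the 250 bases before the annotated start, from RefSeq on GRCm38.p6, on the strand of the gene, and capitals mark the element. The E-box CACGTG, which CLOCK and BMAL1 bind, was searched on both strands of windows reaching 50 bases past the start. It stood in 5 of 15 clock genes that had a window (Per1, Cry1, Tef, Bhlhe41 and Ciart) and in 8.09% of the windows of all 27025 genes. In Per1 its first base lay 166 bases before the start, and in the Tef transcript shown 138 bases.
Per1 chr11:69098699-69098948 (+): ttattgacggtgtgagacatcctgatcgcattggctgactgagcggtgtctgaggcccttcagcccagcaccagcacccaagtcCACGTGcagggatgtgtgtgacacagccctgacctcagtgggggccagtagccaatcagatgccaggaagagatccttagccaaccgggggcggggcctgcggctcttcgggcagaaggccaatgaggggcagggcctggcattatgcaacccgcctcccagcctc
Tef chr15:81811164-81811413 (+): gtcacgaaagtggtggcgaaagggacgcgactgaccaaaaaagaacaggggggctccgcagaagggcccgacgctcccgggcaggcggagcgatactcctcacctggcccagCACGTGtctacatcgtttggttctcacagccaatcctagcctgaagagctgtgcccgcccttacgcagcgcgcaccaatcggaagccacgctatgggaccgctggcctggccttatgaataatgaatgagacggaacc

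The ER stress element, CCAAT and CCACG with 9 bases between them, was searched in the same windows, on both strands. It stood in 7 of 16 genes of the ER folding list with a window (Hspa5, Hsp90b1, Calr, Canx, Pdia6, Dnajc3 and Creld2) and in 0.137% of all genes. Hspa5 held it 65 bases before the start, and Hsp90b1 held it at 212 and, on the other strand, at 107 bases. The interferon-stimulated response element, here GAAA and again GAAA with 2 bases between them, was found in 10 of 18 genes of the interferon-stimulated list and in 3.99% of all genes. Cxcl10, which is in another list, carried it 213 bases before the start. An element of the glucocorticoid receptor, ACANNNTGT with N for any base, was searched as well. It stood in 1 of 9 glucocorticoid targets with a window (Sgk1) and in 7.9% of all genes. A match is a description of letters and not of binding.
Hspa5 chr2:34771840-34772089 (+): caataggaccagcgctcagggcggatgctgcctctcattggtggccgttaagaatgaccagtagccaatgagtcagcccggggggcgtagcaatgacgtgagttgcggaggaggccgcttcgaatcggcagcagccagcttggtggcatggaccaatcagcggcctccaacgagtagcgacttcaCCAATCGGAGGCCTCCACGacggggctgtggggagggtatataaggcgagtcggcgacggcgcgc
Hsp90b1 chr10:86705445-86705694 (-): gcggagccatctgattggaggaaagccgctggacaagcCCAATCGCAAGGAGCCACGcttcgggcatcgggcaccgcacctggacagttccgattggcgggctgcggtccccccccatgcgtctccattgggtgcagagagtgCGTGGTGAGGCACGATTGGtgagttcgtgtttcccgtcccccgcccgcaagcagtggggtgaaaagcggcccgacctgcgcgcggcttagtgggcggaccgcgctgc
Cxcl10 chr5:92348890-92349139 (-): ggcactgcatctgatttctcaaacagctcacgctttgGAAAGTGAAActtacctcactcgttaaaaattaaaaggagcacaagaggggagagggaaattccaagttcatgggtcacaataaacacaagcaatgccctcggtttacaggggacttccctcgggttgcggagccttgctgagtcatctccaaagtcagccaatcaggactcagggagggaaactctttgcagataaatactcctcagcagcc

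Reads of the kept ECs were summed per mouse, giving 75.6 to 129.5 M reads for each of 10 libraries, and levels are CPM, the counts of a gene scaled to the size of its library. Shares of cells with at least 1 read were counted after each cell had been thinned to 50000 reads, which left out 55 cells of day 0, 39 of day 1.5 and 88 of day 3.5. The deposited annotation names a sort day for each mouse, and m1 and m2 were sorted with the mice of day 1.5, whereas m3 and m4 were sorted with those of day 3.5. Days 1.5 and 3.5 therefore never share a sort day, and their difference and that of the sort days cannot be told apart except through the 4 mice of day 0. Several libraries had genes whose share lay more than 10 points outside the range of all other libraries. There were 41 above in m11, 32 below in m1, 21 above in m7, 18 above and 5 below in m5, and 4 above and 15 below in m6. The library of m5 stood apart in the genes that follow. In m5 the ferritin pseudogenes Ftl2-ps and Ftl1-ps2 were read in 67.8 and 45.8% of cells and in at most 6.05% elsewhere, and Cd74, the class II invariant chain, was read in 1.99% against 23.6 to 45.3%. For the genes named, a call of the share test that was lost without m5 is given as such.

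Endothelial identity held on every day. The 12 endothelial markers, among them Pecam1 and Cdh5, summed to 17120 to 30675 CPM in the 10 libraries. The 20 immune markers summed to 5.96 to 18.2 CPM on day 1.5 and 11.7 to 22.8 CPM on day 3.5, and Ptprc (CD45) did not exceed 0.0686 CPM. The 15 mural and stromal markers reached 41.9 CPM at most. The 14 epithelial markers summed to 653 to 799 CPM on day 1.5 and 723 to 1183 CPM on day 3.5, with Epcam at 0 in all libraries of day 3.5. Red cell and platelet genes summed to 71.9 to 231 CPM on day 1.5, to 233 to 273 CPM on day 3.5 and up to 2833 CPM on day 0. Lymphatic markers summed to 444 to 790 CPM on day 1.5, 477 to 1277 CPM on day 3.5 and 348 to 852 CPM on day 0, with Prox1 at most at 1.60 CPM. Although cells were sorted as lacking LYVE1, Lyve1 was read in 56.3, 36.1 and 45.0% of gCaps on day 1.5. On day 3.5 it was read in 41.4, 60.8 and 69.3%. Tumor cell markers summed to 6.50 to 21.7 CPM on day 1.5 and 2.11 to 9.11 CPM on day 3.5.

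In total ECs the quasi-likelihood test of edgeR with Benjamini-Hochberg adjustment called 0 of 17585 genes (0%) between day 3.5 and day 1.5. At an unadjusted p under 0.05 it listed 798 genes (4.54%), 348 of them higher (1.98%) and 450 lower (2.56%) on day 3.5, and DESeq2 called 124. Because summed reads of a gene can rest on a few cells, a second test compared the shares of cells with reads, with limma on the arcsine of the square root of each share. It was chosen after the count of 0 had been seen. It called 10 of 8830 genes (0.113%), 9 higher (0.102%) and 1 lower (0.0113%). The lower gene was the pseudogene Gm5244, which was read in 26.2% of cells of m5 and at most 1.07% of any other mouse. With a term for the sort day the test called 0 genes, with 188 at an unadjusted p under 0.05, and without m5 it called 5. Without m9 it called 88 genes, without m6 21, without m7 49, without m10 4 and without m11 6. Its calls rest on a spread estimated over all genes, and libraries of day 3.5 can differ widely within a called gene. Libraries of both days did not overlap in share for 9.52% of genes and in CPM for 9.66%. At an unadjusted p under 0.05 the share test listed 6.89% of genes, 6.39% higher and 0.498% lower. With libraries centred on the median of all genes it listed 548 genes, 305 of them higher, so that the balance of higher and lower genes by share depends on the scaling. The median share over all genes was 1.62 points higher on day 3.5, and 10 of 12 endothelial markers had the higher mean. How many of all genes had the higher mean share is not given. Counts of list members with the higher mean share are therefore description only. Differences in points also depend on how often a gene is read.

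Day 0 gives the background for both days. Against it edgeR called 0 genes on either day, and at an unadjusted p under 0.05 it listed 8.09% on day 1.5 (4.49% higher, 3.59% lower) and 8.76% on day 3.5 (4.62% higher, 4.14% lower). The share test called 0.453% on day 1.5 (0.385% higher, 0.068% lower) and 4.94% on day 3.5 (4.92% higher, 0.0227% lower). At an unadjusted p under 0.05 it listed 8.84% (8.14% higher, 0.702% lower) and 24.9% (24.6% higher, 0.26% lower). Libraries did not overlap those of day 0 for 7.48 and 7.74% of genes in CPM and for 8.12 and 21.9% in share. All contrasts of day 1.5 share its 3 libraries, so that a deviation of these libraries enters the contrasts with day 0 and with day 3.5 with opposite sign.

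The 9 genes that rose were led by the clock. Of 12 clock genes tested by share, 6 rose on day 3.5 (Nr1d1, Nr1d2, Per3, Dbp, Tef and Per1), against 0.102% of all genes, and 11 of 12 had the higher mean share. With libraries centred on the median of all genes, 3 of the 6 were no longer called (Dbp 0.0719, Tef 0.0777 and Per1 0.0719, adjusted p of limma), and with the sort-day term 0 of the 6 were called (adjusted p 1.00 each). The median difference of the list was 5.45 percentage points, against 1.62 points over all genes. On summed reads the median of its 17 tested members was 1.198 log2, against -0.000342 over all genes, with 4 members higher and 0 lower at an unadjusted p under 0.05. The same list had been low on day 1.5. There 4 of 12 members fell by share against day 0 (Nr1d1, Nr1d2, Dbp and Tef), where 0.068% of all genes fell. Without m5, Nr1d1 and Nr1d2 were still called (adjusted p of limma 0.00133 and 0.0470) and Dbp and Tef were not (0.0676 and 0.428). None of the 4 was called with the sort-day term (adjusted p 0.148, 0.119, 0.390 and 0.252), and over all genes that test called 17, each of them higher.

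Nr1d1, the receptor REV-ERB alpha, which represses Bmal1, lies at chr11:98767932-98775333 on the minus strand and overlaps Thra on the plus strand (the counting is not stated to use strand). It was read in 1.33, 1.43 and 0.623% of cells of m5, m6 and m7 and in 26.1, 28.2 and 11.1% of m9, m10 and m11. Day 0 mice stood at 7.91, 6.48, 18.0 and 27.7%. The mice of day 3.5 lay above all those of day 1.5 and within or just above day 0, where m3 and m4, sorted with them, were higher than m1 and m2. The arcsine difference of day 3.5 from day 1.5 was 0.373 ± 0.0477 (SE, n = 3 and 3 mice, adjusted p of limma 2.34e-06). Without m5 it was 0.379 (adjusted p 8.07e-06), whereas with the sort-day term it was 0.148 (adjusted p 1.00). Without thinning, the gene had reads in 18 of the 941 earlier cells, 204 of the 699 later ones and 165 of the 839 baseline cells.

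Within each sort day the comparison with day 0 can be made separately. The mice m5, m6 and m7, at 0.623 to 1.43% for Nr1d1, lay below m1 and m2, at 6.48 and 7.91%, sorted with them. The mice m9, m10 and m11, at 11.1 to 28.2%, overlapped m3 and m4, at 18.0 and 27.7%. With the sort-day term the difference of day 1.5 from day 0 was -0.166 (adjusted p of limma 0.148), against -0.279 (adjusted p 0.000111) without it. The hour of collection is not given in the sources used here, and its part in the difference was not tested.

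Nr1d2, the related receptor REV-ERB beta, was read in 0, 1.07 and 0.311% of cells on day 1.5 and in 7.14, 6.90 and 7.54% on day 3.5. The 3 mice of day 3.5 were close to each other and lay at the upper end of day 0, where the shares were 3.26, 4.63, 6.19 and 7.55%. The difference was 0.218 ± 0.0343 (SE, adjusted p of limma 0.000183), higher in each of 3 mice. In summed reads Nr1d2 lay at 0, 2.31 and 0.0987 CPM on day 1.5 and at 36.3, 10.5 and 33.5 CPM on day 3.5, without overlap. Without thinning, 5 of the earlier and 76 of the later cells had reads. In aCaps alone, where fewer cells were counted, the adjusted p was 0.482.

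The output factors followed with more scatter. Dbp, an activator of clock-controlled genes that overlaps Sphk2, was read in 1.99, 2.5 and 2.49% of cells on day 1.5 and in 22.7, 22.4 and 5.03% on day 3.5, with 6.98, 7.87, 11.9 and 24.5% on day 0. In m11 the share was much lower than in m9 and m10, as it was for Nr1d1, yet still above day 1.5. The difference was 0.252 ± 0.0472 (SE, adjusted p of limma 0.00396), and without m10 the adjusted p was 0.215. Tef, of the same family, was read in 0.332, 3.21 and 3.43% on day 1.5 and in 12.6, 14.4 and 6.03% on day 3.5. Again m11 was lowest, and no mouse overlapped. The difference was 0.192 ± 0.0380 (SE, adjusted p of limma 0.00935), lost without m5 (0.482) or m10 (0.216). Without thinning, 41 of the 941 earlier cells had reads of Dbp and as many had reads of Tef, against 167 and 109 of the 699 later cells.

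Of the period genes, which feed back on the clock, Per3 was read in 2.33, 8.21 and 6.23% of cells on day 1.5 and in 15.6, 19.5 and 22.6% on day 3.5. Here m11 was highest, so that the mice of day 3.5 did not keep 1 order across the clock genes. The difference was 0.221 ± 0.0386 (SE, adjusted p of limma 0.00132) and the call was lost without m5 (adjusted p 0.160). Reads of Per3 were present in 91 earlier and 185 later cells without thinning. Per2 lay at 0.0860, 4.61 and 0.962 CPM on day 1.5 and at 28.6, 31.4 and 15.6 CPM on day 3.5, a log2 fold change of 3.74 ± 1.22 (SE, unadjusted p of edgeR 0.0112, adjusted p 1). By share Per2 was not called (adjusted p 0.264). Day 0 held 20.6, 4.39, 22.9 and 32.0 CPM, so that its lowest library, m2, lay at the level of m6.

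The positive arm of the clock gave no call by edgeR or by share. Clock itself was read in 10.96, 11.8 and 16.2% of cells on day 1.5 and in 9.66, 12.6 and 12.6% on day 3.5, which overlap. Arntl (BMAL1) lay at 0.258, 22.7 and 2.76 CPM on day 1.5 and at 0.0106, 0 and 0.919 CPM on day 3.5, a log2 fold change of -4.79 ± 2.604 (SE, unadjusted p of edgeR 0.0945, adjusted p 1). Its libraries overlapped through m5 and m11.

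**Figure D1:**
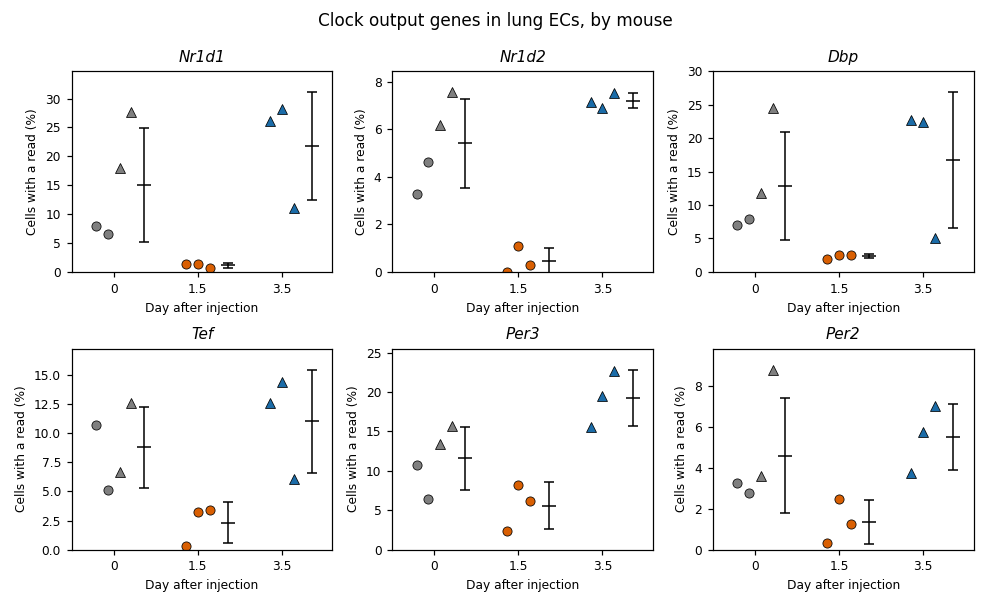
Share of cells with a read (%, 50000 reads per cell) of 6 clock genes, by mouse, on days 0, 1.5 and 3.5. Points are mice, circles were sorted with day 1.5 and triangles with day 3.5, and bars give the mean ± SD. For Nr1d1 the mice of day 1.5 sit at 0.623 to 1.43% and those of day 3.5 at 11.1 to 28.2%.

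Some glucocorticoid-responsive genes rose beyond day 0, and their levels in m10 and m11 exceeded those in m9. Cells of m9 had the lowest median depth (270585 reads), and the part of depth in these values was not tested. Of 8 members tested by share, 2 rose on day 3.5 (Zbtb16 and Per1, which is also a clock gene), against 0.102% of all genes, 5 had an unadjusted p under 0.05, against 6.39% of all genes higher, and 7 had the higher mean. The median difference was 11.6 percentage points, against 1.62 over all genes. The mean share over the list was 19.3, 15.4 and 23.2% on day 1.5 and 16.9, 30.3 and 35.0% on day 3.5, with 16.1 to 21.4% on day 0. By mean share the mouse m9 thus lay within days 0 and 1.5, and m10 and m11 above every other library. In summed reads of the list m9 was the lowest of all libraries, at 895 CPM, and m10 and m11 the highest, at 2219 and 3386 CPM. Against day 0, 4 of the 8 members rose by share on day 3.5 (Zbtb16, Per1, Fkbp5 and Cdkn1a), against 4.92% of all genes. With the sort-day term Zbtb16 and Cdkn1a were not called against day 0 (adjusted p of limma 0.229 and 0.128), and Zbtb16 was also lost without m10 or m11.

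Zbtb16, a zinc-finger repressor induced by the hormone in many cells (chr9:48654297-48836222, minus strand), had the smallest edgeR p of the higher genes named. It lay at 1.09, 6.82 and 17.4 CPM on day 1.5 and at 82.4, 218 and 209 CPM on day 3.5, with 67.3, 70.2, 79.8 and 102 CPM on day 0. The mouse m9 returned to the range of day 0, whereas m10 and m11 lay at more than any day 0 mouse. The log2 fold change was 4.33 ± 0.84 (SE, unadjusted p of edgeR 0.000369, adjusted p 1). By share it rose from 2.33, 1.79 and 3.43% to 8.82, 39.1 and 37.2%, a difference of 0.387 ± 0.0503 (SE, adjusted p of limma 2.34e-06, and 9.49e-06 without m5). With the sort-day term the difference was 0.265 (adjusted p 1.00). Over all reads, 53 of 941 cells had it on day 1.5 and 266 of 699 on day 3.5.

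Per1, which the hormone also induces, was read in 4.98, 4.64 and 17.1% of cells on day 1.5 and in 13.9, 25.3 and 35.2% on day 3.5. The groups overlapped through m7 and m9. The difference was 0.225 ± 0.04996 (SE, adjusted p of limma 0.0390), and the call was lost without m5 (0.532), m6 (0.106), m10 (0.216) or m11 (0.546), without m2 (0.0551) or m3 (0.0591), with libraries centred on the median of all genes (0.0719) and over all reads (0.119). Without thinning, 144 earlier and 246 later cells had reads of Per1. Klf9, a Krüppel-like repressor, lay at 40.0, 36.6 and 38.2 CPM on day 1.5 and at 52.0, 144 and 164 CPM on day 3.5, with 65.8 to 99.1 CPM on day 0. Here m9 lay below day 0 and m10 and m11 above it, and the log2 fold change was 1.65 ± 0.41 (SE, unadjusted p of edgeR 0.00220, adjusted p 1).

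Tsc22d3 (GILZ), an anti-inflammatory leucine zipper protein, was read in 19.3, 12.9 and 22.7% of cells on day 1.5 and in 15.1, 40.2 and 53.8% on day 3.5. The share of m9 lay within day 1.5, and the adjusted p was 0.283. Fkbp5, a co-chaperone of the receptor named here after its values were seen, was read in 7.31, 3.57 and 4.98% on day 1.5 and in 6.72, 15.5 and 15.6% on day 3.5. It was called against day 0 (3.77 to 6.05%, adjusted p of limma 0.0132) and not against day 1.5 (0.246). By contrast Dusp1 and Sgk1, which are in the same list, overlapped between the days, at 189 to 336 against 182 to 289 CPM and at 47.1 to 102 against 38.8 to 76.1 CPM.

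Outside both lists, Bcl2l1, which encodes the survival protein BCL-XL, had the same distribution over mice. It was read in 10.96, 5.71 and 15.9% of cells on day 1.5 and in 12.6, 39.7 and 49.8% on day 3.5, with 9.30, 11.1, 16.0 and 23.9% on day 0. The groups overlapped through m7 and m9, and the difference was 0.279 ± 0.0573 (SE, adjusted p of limma 0.0142). Without m11 the adjusted p was 0.482, without m10 0.216 and over all reads 0.125, where 171 earlier and 298 later cells had it. The 9th gene that rose was Ptpru, a receptor tyrosine phosphatase, with 3.99, 5.36 and 8.41% on day 1.5 and 11.8, 17.2 and 20.6% on day 3.5. Its libraries did not overlap by share (0.173 ± 0.0370, SE, adjusted p of limma 0.0235), but did in CPM, where m9 at 12.6 was the lowest of all. Its call was lost without m5 (0.524), m10 (0.216) or m11 (0.416) and over all reads (0.118), where 103 earlier and 167 later cells had it.

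**Figure D2:**
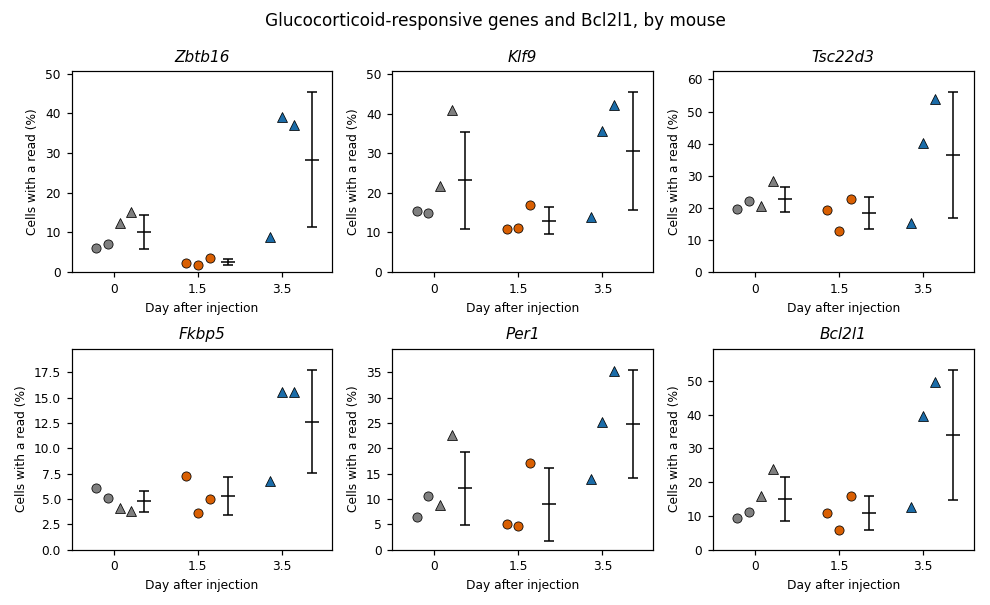
Share of cells with a read (%, 50000 reads per cell) of 5 glucocorticoid-responsive genes and Bcl2l1, by mouse, on days 0, 1.5 and 3.5. Points are mice, circles were sorted with day 1.5 and triangles with day 3.5, and bars give the mean ± SD. On day 3.5 the lowest point of Zbtb16, at 8.82%, is m9, and the other two lie at 37.2 and 39.1%.

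Some genes with no call by edgeR or by share lay low on day 1.5 and near day 0 again on day 3.5. Under a rule of at least 1 log2 down and then 1 log2 up, with an unadjusted p under 0.05 for the later step, 72 of 11812 genes qualified, and 74 under the converse rule of a rise and a return. Since both steps share day 1.5, these counts carry no test. Txnip, which binds thioredoxin and limits glucose uptake, lay at 100.2, 58.2 and 98.3 CPM on day 1.5 and at 245, 177 and 192 CPM on day 3.5, with 193 to 359 CPM on day 0. Days 1.5 and 3.5 did not overlap, and the log2 fold change was 1.26 ± 0.30 (SE, unadjusted p of edgeR 0.00171, adjusted p 1). Baiap2, an adaptor of the actin cytoskeleton, lay at 32.1, 33.3 and 42.9 CPM and then at 81.5, 117 and 75.0 CPM, with 60.7 to 111 CPM on day 0. The mice m9 and m11 lay in the range of day 0 and m10 just above it (1.34 ± 0.33 log2, SE, unadjusted p of edgeR 0.00208, adjusted p 1). By share of gCaps with Baiap2, m9 at 11.03% overlapped m7 at 11.64%, and in aCaps m9 was the lowest mouse, at 5.085%.

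Genes of TGF-beta and BMP signalling lay in the same direction by share. Of 15 members, 14 had the higher mean share on day 3.5 and 4 an unadjusted p under 0.05 (6.39% of all genes), and none was called. The list's median was 4.14 points against 1.62 over all genes, and 0.04 log2 on summed reads. Smad2, a receptor-regulated SMAD outside the list, lay at 7.98 to 12.8 CPM on day 0, at 10.2, 6.22 and 7.28 CPM on day 1.5 and at 33.1, 28.2 and 24.8 CPM on day 3.5. Its 3 libraries of day 3.5 lay above the other 7, with a log2 fold change of 1.86 ± 0.51 (SE, unadjusted p of edgeR 0.00417, adjusted p 1). Tpm4, an actin-binding tropomyosin, likewise lay at 243, 219 and 188 CPM on day 3.5 and at 95.04 to 162 CPM in the other 7.

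In summed reads class I genes did not share 1 direction. By share 11 of 13 had the higher mean on day 3.5 than on day 1.5, with a median of 2.85 points against 1.62 over all genes. H2-D1, a class I heavy chain, lay at 3138, 3091 and 4099 CPM on day 1.5 and at 3552, 4676 and 4769 CPM on day 3.5, below the 4949 to 5723 CPM of day 0 in all 6 mice. The mouse m9 lay below m7, and the difference was 0.33 ± 0.15 log2 (SE, unadjusted p of edgeR 0.0528, adjusted p 1). H2-K1, the chain to which the injected antibody binds, lay at 1479, 1348 and 1538 CPM on day 1.5 and at 1320.0, 1607 and 1863 CPM on day 3.5, overlapping. Of the 13 class I genes none was called by edgeR or by share, 0 were higher and 2 lower at an unadjusted p under 0.05 of edgeR (1.98 and 2.56% of all genes), and the list's median was 0.21 log2. The 7 class II genes had a median of 0.09 log2, with m5 as the low library on day 1.5. Hbb-bs, an adult beta-globin gene that marks red cells, lay at 15.4, 34.6 and 41.6 CPM on day 1.5 and at 99.0, 139 and 83.8 CPM on day 3.5, without overlap. Its share had fallen on day 1.5 against day 0 (adjusted p of limma 0.00255), where m4 stood at 932 CPM. That call was lost without m5 (adjusted p 0.0628) and with the sort-day term (0.266).

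Genes of protein folding in the ER lay lower on day 3.5 than on day 1.5, with none called by edgeR or by share. On summed reads their median was -0.34 log2 with 3 of 18 lower at an unadjusted p under 0.05 (2.56% of all genes), and some smaller lists had lower medians, such as 9 chemokines and cytokines (-0.66, 2 lower). Of the 18 members of the ER folding list, 17 had a higher mean share on day 1.5 than on day 0 (median 6.68 points, 7 with an unadjusted p under 0.05 against 8.14% of all genes). On day 3.5 only 5 of the 18 had a higher mean share than on day 1.5, with a median of -1.98 points against 1.62 over all genes. The list summed to 5322, 4646 and 4746 CPM on day 1.5 and to 2889, 3589 and 3994 CPM on day 3.5, with 4163 to 4319 CPM on day 0. In summed reads the days did not overlap, and day 3.5 lay below day 0 in all 3 mice. By mean share over the list the days overlapped, at 35.3, 26.8 and 39.7% on day 1.5 and 24.2, 33.7 and 35.4% on day 3.5, and m10 and m11 lay above the 23.02 to 30.2% of day 0.

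Hspa5 (BiP), the main ER chaperone, lay at 891, 881 and 625 CPM on day 1.5 and at 288, 557 and 349 CPM on day 3.5, with 486 to 644 CPM on day 0. All 3 mice lay below day 1.5, and m10 was within day 0. The log2 fold change was -1.005 ± 0.26 (SE, unadjusted p of edgeR 0.00293, adjusted p 1), and by share m10 and m11 at 54.0 and 56.8% overlapped m6 at 50.4%. Pdia3, a disulfide isomerase that also serves class I loading, lay at 673, 619 and 574 CPM and then at 346, 252 and 486 CPM, below the 504 to 751 CPM of day 0 in all mice (-0.78 ± 0.25 log2, SE, unadjusted p of edgeR 0.00990, adjusted p 1). Hsp90b1, the ER paralog of HSP90, lay at 919.9, 555 and 735 CPM and then at 355, 371 and 617 CPM, with an overlap of m6 and m11. Sdf2l1, an ER protein named after its values were seen, stood at 14.9 and 25.03 CPM in m9 and m10 and at 87.4 CPM in m11, against 68.6 to 133 CPM on day 1.5.

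Ddx20, a helicase of the SMN complex, had the smallest edgeR p of the genes named under the rule of a rise and a return. It lay at 3.17 to 6.70 CPM on day 0, at 17.7, 27.8 and 12.01 CPM on day 1.5 and at 1.71, 2.34 and 4.29 CPM on day 3.5. All 3 mice of day 1.5 lay above the other 7, and the later step was -2.79 ± 0.70 log2 (SE, unadjusted p of edgeR 0.00246, adjusted p 1).

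Some single genes of other lists also lay nearer to day 0 on day 3.5. Unc5b, a netrin receptor of angiogenic ECs, lay at 131, 146 and 101 CPM on day 1.5 and at 65.3, 80.1 and 40.0 CPM on day 3.5, against 38.0 to 72.2 CPM on day 0. All 3 mice of day 1.5 lay above day 0, and the later difference was -1.03 ± 0.37 log2 (SE, unadjusted p of edgeR 0.0197, adjusted p 1), without overlap. Cxcl10, an interferon-induced chemokine that draws T cells, lay at 83.9, 25.3 and 61.6 CPM and then at 5.78, 0.413 and 17.6 CPM. Every mouse of day 3.5 lay below day 1.5 and above the highest value of day 0, 0.0129 CPM in m4, and the change from day 1.5 was -2.84 ± 1.11 log2 (SE, unadjusted p of edgeR 0.0277, adjusted p 1). It came from 36 cells on day 1.5 and 10 on day 3.5.

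Dph3, needed for diphthamide synthesis on the translation factor eEF2, lay at 218, 224 and 117 CPM on day 1.5 and at 71.4, 86.1 and 69.0 CPM on day 3.5, with 72.8 to 132 CPM on day 0. It was back at or just below day 0 in all 3 mice (-1.30 ± 0.32 log2, SE, unadjusted p of edgeR 0.00221, adjusted p 1). Emp3, a membrane protein of the study's biosynthesis panel, was read in 21.6, 13.2 and 10.6% of cells on day 1.5 and in 10.5, 9.20 and 8.54% on day 3.5, with 2.79 to 5.56% on day 0. Its rise by day 1.5 was called (adjusted p of limma 0.000629) and the return was not (0.620), so that it lay between both levels. Without m5 the rise was not called (adjusted p 0.0798). Of the 9 panel members tested by share, 5 were called higher on day 1.5 against day 0 and 6 on day 3.5 (0.385 and 4.92% of all genes). Their medians against day 0 were 13.97 and 16.15 points (1.117 and 2.69 over all genes), and -0.408 points between the later days. The study had filtered this panel for increases over day 0 on both days in these data, so its counts carry no test. Col18a1, the collagen that releases endostatin, had risen by day 1.5 (8.97, 22.1 and 13.7% against 0.926 to 2.79%, adjusted p of limma 1.66e-05) and was read in 5.88, 8.05 and 11.1% on day 3.5. Its groups overlapped through m5 and m11, and it was still called against day 0 (adjusted p of limma 0.00891).

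**Figure D3:**
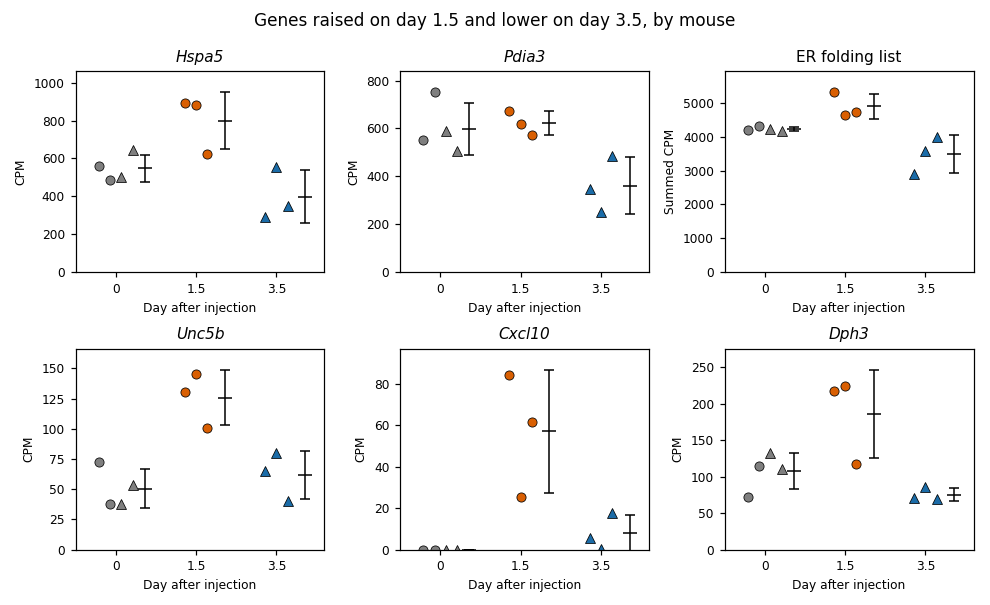
CPM by mouse, on days 0, 1.5 and 3.5, of 5 genes and of the summed ER folding list (18 genes), which lay lower on day 3.5 than on day 1.5. Points are mice, circles were sorted with day 1.5 and triangles with day 3.5, and bars give the mean ± SD, cut off at 0 for Cxcl10. The list sits at 4646 to 5322 CPM on day 1.5 and at 2889 to 3994 CPM on day 3.5.

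A further set of genes stayed raised on day 3.5, and most of those named were called against day 0 by share, with no call given for Timp1. The genes named with this set other than Lrg1, Timp1 and Angpt2 were chosen after their values were seen. Against day 0, 434 of 8830 genes rose by share on day 3.5 (4.92%) and 34 on day 1.5 (0.385%), while the median over all genes lay 2.69 points higher on day 3.5 and 1.117 points higher on day 1.5 than on day 0. The test called 154 genes on day 3.5 once each library was centred on that median, 24 with the sort-day term and 29 without m10. Leaving out each other library gave 82 (m2), 91 (m1), 96 (m11), 211 (m3) or more, up to 889 (m9). Lrg1, a secreted glycoprotein that modifies TGF-beta signalling in vessels, was read in 38.5, 23.6 and 22.1% of cells on day 1.5 and in 18.5, 40.2 and 51.8% on day 3.5, against 2.06 to 7.55% on day 0. All 6 mice lay above day 0, and m9 was the lowest of them. Without thinning, 426 earlier, 354 later and 64 baseline cells had reads of Lrg1. The difference of day 3.5 from day 0 was 0.433 ± 0.0499 (SE, adjusted p of limma 1.34e-07), and that of day 3.5 from day 1.5 was 0.66 ± 0.82 log2 in summed reads (unadjusted p of edgeR 0.436, adjusted p 1), turning to -0.17 without m11. With the sort-day term Lrg1 was still called against day 0 on day 3.5 (0.434, adjusted p of limma 8.11e-05).

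Of 12 STAT3 and acute-phase genes, 6 were called higher on day 3.5 than on day 0 (4.92% of all genes) and 0 between day 3.5 and day 1.5, where 1 was higher at an unadjusted p under 0.05 (6.39% of all genes). Bcl3, a nuclear IkB protein, was read in 18.6, 13.2 and 19.9% of cells on day 1.5 and in 14.3, 17.2 and 14.1% on day 3.5, against 1.89 to 5.67% on day 0 (adjusted p of limma 0.000418 for day 3.5). Sbno2, a transcriptional co-regulator outside the list, was read in 40.2, 32.9 and 40.2% and then in 38.7, 44.2 and 41.2%, against 11.9 to 18.5% (adjusted p 6.38e-05). The 6 injected mice lay above all day 0 mice in both genes, and both remained called on day 3.5 with the sort-day term (adjusted p of limma 0.00545 and 0.00128). Timp1, an inhibitor of metalloproteinases in the same list, lay at 21.8, 24.7 and 33.9 CPM and then at 41.7, 30.3 and 8.96 CPM, against at most 0.788 CPM on day 0. Angpt2, another angiokine, lay at 38.3, 22.4 and 22.1 CPM on day 1.5 and at 17.0, 17.1 and 4.85 CPM on day 3.5, against 4.35 to 44.6 CPM on day 0. All 3 mice of day 3.5 lay below those of day 1.5 and both days lay within day 0 (-1.09 ± 0.78 log2, SE, unadjusted p of edgeR 0.193, adjusted p 1), while the shares of cells overlapped. The 5 angiokines listed by the study summed to 1067, 339 and 314 CPM on day 1.5 and to 229, 689 and 1488 CPM on day 3.5. On day 0 they summed to 38.0 to 118.5 CPM.

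Basement membrane genes stayed up as a group. Of 14 members tested by share, 5 were called higher on day 1.5 against day 0 (0.385% of all genes) and 6 on day 3.5 against day 0 (4.92%). All 14 had the higher mean on both days, with medians of 5.71 and 6.06 points, while the median over all genes was 1.117 and 2.69 points. Between day 3.5 and day 1.5, 0 were called, and the median was 0.243 points, below the 1.62 of all genes. Col4a1, a chain of the main basement membrane collagen, lay at 1098, 1314 and 1199 CPM on day 1.5 and at 996, 1229 and 1172 CPM on day 3.5, against 499.5 to 646 CPM on day 0. The difference between the days of injected mice was -0.09 ± 0.16 log2 (SE, unadjusted p of edgeR 0.604, adjusted p 1). Its neighbour and partner Col4a2 lay at 1268, 1571 and 1422 CPM and then at 1520.0, 1588 and 1333 CPM, against 407 to 712 CPM. Sparc, a matricellular protein that binds collagen, was read in 82.7, 76.4 and 90.0% of cells and then in 79.0, 86.2 and 94.97%, against 43.7 to 65.4% (adjusted p of limma 0.00158 for day 3.5 against day 0). With the sort-day term Col4a1, Col4a2 and Sparc were not called on day 3.5 (adjusted p of limma 0.147, 0.195 and 0.0991), with arcsine differences of 0.227, 0.2205 and 0.276 against 0.267, 0.305 and 0.345 without it.

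Ribosomal protein genes lay above day 0 on both days. The list of 56 summed to 34280, 36140 and 35750 CPM on day 1.5 and to 37640, 36230 and 31600 CPM on day 3.5, against 25090 to 28080 CPM on day 0. All 6 libraries lay above day 0, and the median change from day 1.5 to day 3.5 was -0.03 log2. By share, 54 of the 56 had the higher mean on day 3.5 than on day 1.5, with a median of 6.65 points against 1.62 over all genes and 0 called. By share, 29 of the 56 were called on day 3.5 against day 0 (4.92% of all genes), with a median of 18.2 points against 2.69 over all genes, and 0 of the 56 were called on day 1.5. On day 3.5 that test called 24 of all genes with the sort-day term and 29 without m10, ribosomal or not. Cdkn1a (p21), an inhibitor of the cell cycle, was read in 66.5, 60.0 and 72.3% of cells on day 1.5 and in 35.3, 64.9 and 77.9% on day 3.5, against 28.9 to 38.9% on day 0. In m9 it was back at day 0, in m10 and m11 it was not, and day 3.5 was called against day 0 (adjusted p of limma 0.0205, lost without m2, m4, m10 or m11 and with the sort-day term, 0.128).

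Few genes met a rule for going on rising. Under a rule of at least 0.5 log2 in both steps with an unadjusted p under 0.05 for the later step and for day 3.5 against day 0, 11 of 11812 genes qualified, and 6 under the converse rule. Xaf1, an interferon-induced antagonist of an inhibitor of apoptosis, lay at 239 to 283 CPM on day 0, at 432, 399.6 and 381 CPM on day 1.5 and at 824, 562 and 467 CPM on day 3.5. No library overlapped between any days, and the later step was 0.61 ± 0.22 log2 (SE, unadjusted p of edgeR 0.0189, adjusted p 1). By share the days lay at 24.2 to 32.7, 38.9 to 46.5 and 49.2 to 50%, with day 3.5 called against day 0 (0.225, adjusted p of limma 0.00472, and 0.2045, adjusted p 0.109, with the sort-day term). The list of interferon-stimulated genes as a whole did not go on rising. Of its 18 members by share, 12 were higher at an unadjusted p under 0.05 on day 1.5 (8.14% of all genes) and 12 on day 3.5 (24.6%) against day 0, with 0 called on day 1.5 and 6 on day 3.5 (4.92%). Only 1 was higher at that threshold on day 3.5 against day 1.5 (6.39%), where the median was 1.74 points against 1.62 over all genes. Isg15, the ubiquitin-like modifier, was read in 15.3, 5.36 and 7.79% on day 1.5 and in 12.2, 16.1 and 11.6% on day 3.5.

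The 4 genes that follow were chosen after their values were seen, were called on day 3.5 against day 0, and were not called between day 3.5 and day 1.5 (adjusted p of limma 0.264 to 0.592). With the sort-day term they remained called against day 0 (adjusted p of limma 0.000304 to 0.0428). Tmem252, a membrane protein, was read in 29.8 to 40.9% of cells on day 0, in 38.9, 40.0 and 58.9% on day 1.5 and in 50.4, 73.6 and 73.9% on day 3.5 (adjusted p 0.000888 against day 0). Only m7 and m9 overlapped between the later days. Rgcc, a regulator of cell cycle and a marker of capillary ECs, lay at 2.33 to 4.64%, then at 2.66, 7.86 and 7.79% and then at 8.40, 15.5 and 15.6% (adjusted p 0.00120). Sema6b, a transmembrane semaphorin, lay at 0 to 2.31%, then at 5.32, 2.86 and 6.85% and then at 7.14, 10.9 and 10.6% (adjusted p 0.000105). In both genes the mice of day 3.5 were above all others. Scgb3a1, a secretoglobin best known from airway epithelium, lay at 3.26 to 10.1%, then at 10.3, 8.93 and 14.02% and then at 18.5, 20.1 and 19.1% (adjusted p 0.000105). The epithelial list reached 1183 CPM on day 3.5 and 1120 CPM on day 0, and its median from day 1.5 to day 3.5 was 0.0447 log2. Sftpb, a surfactant protein gene that met the rule for rising, lay at 0.0669 to 0.410, then at 0.430, 0.789 and 0.674 and then at 10.3, 2.30 and 2.42 CPM. Sftpc, another surfactant protein gene, overlapped between the days. It lay at 0.278, 115.8 and 0.0345 CPM on day 1.5 and at 38.0, 24.5 and 9.37 CPM on day 3.5. The part of epithelial RNA in the Scgb3a1 values was not tested.

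**Figure D4:**
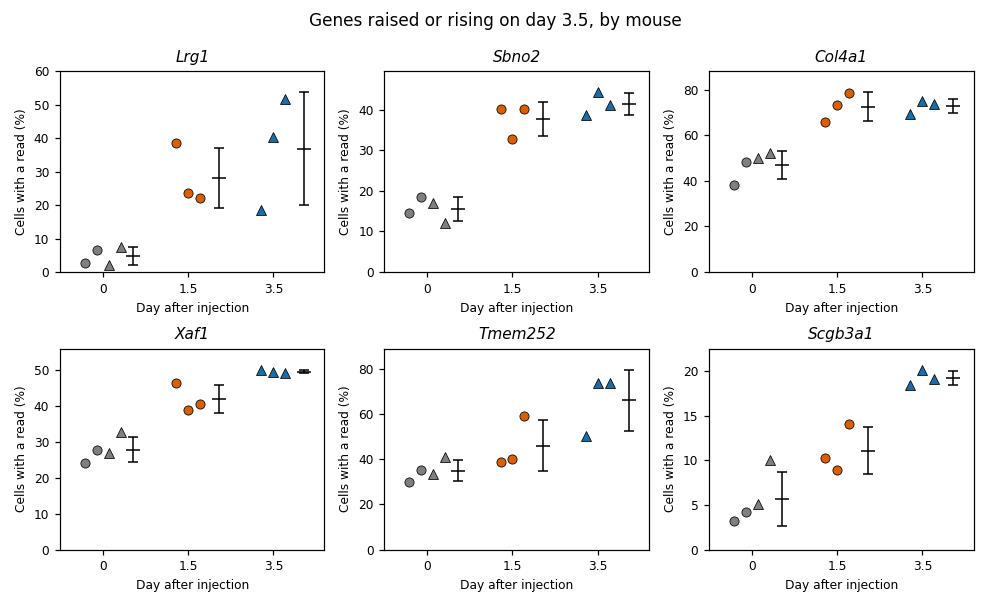
Share of cells with a read (%, 50000 reads per cell) of 6 genes that were called on day 3.5 against day 0, by mouse, on days 0, 1.5 and 3.5. Points are mice, circles were sorted with day 1.5 and triangles with day 3.5, and bars give the mean ± SD. Lrg1, Sbno2 and Col4a1 overlap between days 1.5 and 3.5, whereas Xaf1 lies at 49.2 to 50% on day 3.5 and at most at 46.5% on day 1.5.

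Genes of cell division as a group were near the background between both days. Of 42 S phase genes, 1 was higher and 0 lower at an unadjusted p under 0.05 (1.98 and 2.56% of all genes), with a median of 0.11 log2. Hist1h2ap, a histone H2A gene of a multigene family whose copies can share reads, lay at 2.70 to 4.74 CPM on day 0, at 39.1, 10.5 and 164 CPM on day 1.5 and at 836, 100.4 and 749 CPM on day 3.5. The mouse m10 lay below m7, and the later step was 2.98 ± 0.95 log2 (SE, unadjusted p of edgeR 0.00980, adjusted p 1). It was read in 10 cells on day 0, 21 on day 1.5 and 44 on day 3.5. Mki67, a marker of cycling cells, lay at 0.0156, 0.221 and 12.3 CPM and then at 8.23, 15.8 and 32.8 CPM (unadjusted p of edgeR 0.307), and Top2a, the topoisomerase of dividing cells, at 7.99, 2.51 and 33.4 and then at 57.9, 7.01 and 52.1 CPM (0.203). In both genes m7 was the high mouse of day 1.5 and the groups overlapped. Of the 54 genes of the cycling list, 2 were higher and 1 lower at an unadjusted p under 0.05 (1.98 and 2.56% of all genes), with a median of 0.08 log2. Against day 0, 14 of the 54 were higher on day 1.5 and 18 on day 3.5 at that threshold (4.49 and 4.62% of all genes), and 0 were lower. Their medians against day 0 were 0.96 and 1.32 log2, and those of the S phase genes 0.13 and 0.34 log2.

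By the study's limit on the cycling score, 1, 1 and 7 cells of m5, m6 and m7 and 3, 2 and 10 cells of m9, m10 and m11 were cycling. On day 0 there were 0 of 839, which allows a share of up to 0.358% (counting error only). The mean share was 0.917 ± 1.02% on day 1.5 and 2.20 ± 2.03% on day 3.5 (SD, n = 3), a difference within the spread of the mice (exact permutation p 0.5, 2-sided, where 3 against 3 mice cannot go below 0.1). The mice m7 and m11 held most of these cells, and without m11 the mean of day 3.5 was 1.03%. Counting instead cells with reads in at least 10 cycling genes gave 10.01 ± 4.26% on day 0 (SD, n = 4), 12.04 ± 4.13% on day 1.5 and 20.5 ± 7.52% on day 3.5 (SD, n = 3, exact permutation p 0.2).

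A few genes lay lower at each step or only on day 3.5, with no call by edgeR or by share. Neurl3, a ubiquitin ligase, lay at 76.4 to 156 CPM on day 0, at 66.8, 118 and 46.0 CPM on day 1.5 and at 31.0, 14.2 and 14.3 CPM on day 3.5. Day 3.5 lay below all other libraries (-1.95 ± 0.48 log2 from day 1.5, SE, unadjusted p of edgeR 0.00204, adjusted p 1), but the share of cells with its reads was alike, at 7.98 to 12.1% against 8.21 to 10.96%. Selenos, a selenoprotein of ER-associated degradation, lay at 147 to 236, then at 120.2, 144 and 121 and then at 87.3, 44.1 and 89.4 CPM, without overlap between any days. Sirt3, a mitochondrial deacetylase, lay at 16.2 to 32.1 CPM on day 0, at 35.5, 33.3 and 22.0 CPM on day 1.5 and at 2.36, 4.83 and 8.33 CPM on day 3.5, and its shares overlapped.

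No difference in the makeup of ECs passed an exact permutation test, which 3 against 3 mice cannot take below 0.1. Classes were set with the study's markers and score limits, and are ranges of a score, with 239 cells within 0.1 of the aCap limit and 102 of the gCap limit. The gCap share was 63.9, 55.6 and 59.4% on day 1.5 and 61.3, 73.2 and 68.6% on day 3.5, against 64.2 to 67.2% on day 0. The mouse m9 overlapped day 1.5 (59.6 ± 4.14 and 67.7 ± 6.03%, SD, n = 3, exact permutation p 0.2). The aCap share was 23.6, 28.3 and 26.6% and then 25.2, 16.0 and 18.6%, against 24.4 to 27.5% on day 0. Here m10 and m11 lay below every other mouse, and m9 did not (26.2 ± 2.37 and 19.9 ± 4.75%, SD, n = 3, exact permutation p 0.2). Large-vessel ECs made up 6.39 ± 2.15 and 6.02 ± 1.63% (SD, n = 3, exact permutation p 0.9), against 3.40 ± 1.10% on day 0 (SD, n = 4).

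Of the 12 aCap markers, 3 lay lower in summed reads at an unadjusted p under 0.05 (2.56% of all genes), namely Cdkn2b, a cell cycle inhibitor (-1.23 ± 0.51 log2, SE), Ednrb, the endothelin receptor B that marks aerocytes (-0.66 ± 0.29), and Gpx3, a secreted peroxidase (-0.998 ± 0.42), while the median of the list was 0.01 log2. Within aCaps their shares of cells overlapped between the days. Ednrb was read in 76.7, 76.3 and 82.8% of aCaps on day 1.5 and in 72.9, 75.8 and 86.1% on day 3.5. Gpx3 was read in 63.01, 32.5 and 45.98% and then in 44.1, 42.4 and 63.9%, and Cdkn2b in 38.4, 22.5 and 39.1% and then in 47.5, 21.2 and 19.4%. Ednrb turned to 0.11 log2 with the sort-day term. The 13 gCap markers had a median of 0.07 log2, with 0 at that threshold. By share 12 of the 13 had the higher mean on day 3.5 (median 5.41 points against 1.62 over all genes), 2 of them at an unadjusted p under 0.05 (6.39% of all genes).

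**Figure D5:**
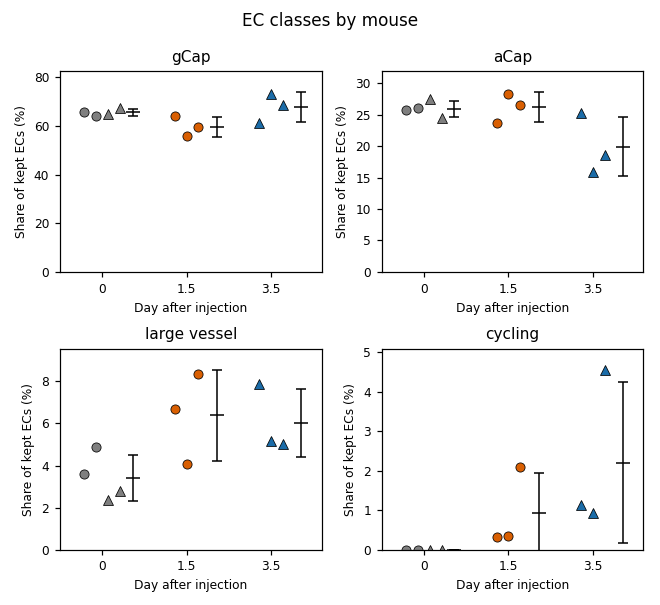
Share of kept ECs (%) in the gCap, aCap, large-vessel and cycling classes, by mouse, on days 0, 1.5 and 3.5. Points are mice, circles were sorted with day 1.5 and triangles with day 3.5, and bars give the mean ± SD. The aCap share is lowest in m10 and m11, at 16.0 and 18.6%.

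The higher levels of Nr1d1 and Zbtb16 were seen in both capillary classes. In gCaps Nr1d1 was read in 0.526, 0.633 and 0% of cells on day 1.5 and in 21.4, 24.8 and 10% on day 3.5, and in aCaps in 1.37, 1.25 and 1.15% and then in 30.5, 36.4 and 19.4%. Each mouse of day 3.5 lay above each mouse of day 1.5 in both classes. Zbtb16 was read in 2.11, 1.90 and 2.65% of gCaps and then in 8.28, 40.8 and 35.7%, and in 1.37, 2.5 and 4.60% of aCaps and then in 15.3, 33.3 and 41.7%, with m9 lowest in both. A test of whether the step from day 1.5 to day 3.5 differed between gCaps and aCaps called 0 of 16710 genes (edgeR, smallest adjusted p 0.789), with 989 at an unadjusted p under 0.05 (5.92%).

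In other lists edgeR and the share test called 0 genes between days 1.5 and 3.5. Of 32 genes of oxidative phosphorylation, 0 were higher and 2 lower at an unadjusted p under 0.05, with a median of -0.04 log2. Interferon-gamma targets (0 and 2 of 25, median 0.15), heat shock genes (0 and 2 of 15, median -0.25), cholesterol synthesis (0 and 0 of 18, median -0.01) and Wnt pathway genes (0 and 0 of 15, median 0.24) are given by the members higher and lower at that threshold, which 1.98% and 2.56% of all genes passed. All 11 Wnt genes tested by share had the higher mean, with a median of 4.313 points against 1.62 over all genes. Of 10 Notch genes 0 passed that threshold, although all 9 tested by share had the higher mean (median 8.745 points) and 2 were higher at an unadjusted p under 0.05 in that test (6.39% of all genes). Detected genes per cell were 2545 on day 1.5 and 2704 on day 3.5 (means of the mice's medians, exact permutation p 0.6), and 1608 and 1779 at 50000 reads per cell (exact permutation p 0.4).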

How the data were processed

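Single ECs were sequenced by Smart-seq2 with single-end reads and no molecular identifiers. Per the labels and the study's methods, the authors demultiplexed with bcl2fastq, quantified transcripts with Salmon 0.7.2 on GRCm38 and summed them to genes with tximport, and deposited the estimated counts per cell. They also deposited log10 values of the filtered ECs, scaled by housekeeping genes, multiplied by 10000 and with 1 added before the logarithm. They kept cells by detected genes and mitochondrial share and removed cells with immune or mural genes. The annotation release and the strand setting of the counting are not given in the sources used here. Of the deposited columns of per-sample values, 0 were left unused.

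The members, gene lists and tests were chosen with earlier results of these data known. Cells were matched between tables by day and column number, and 4444 of 6236916 entries differed in whether they were 0. Estimated counts of the kept ECs were summed per mouse, rounded and tested with edgeR 4.0.16 (quasi-likelihood, TMM, filterByExpr, 10 libraries, 1 mean per day) in R 4.3.3, with Benjamini-Hochberg adjustment and an adjusted p under 0.05 for a call. Library depth was 75.6 to 129.5 M reads, and intervals and limits cover counting error only. The share of cells with a read, after thinning to 50000 reads, was tested with limma 3.58.1 (limma-trend on arcsine of the square root) over genes read in at least 5% of cells on any day. EC classes were set from marker scores made with Seurat 5.3.0. Class shares were tested by exact 2-sided permutation (scipy 1.17.1). Both tests were also run on simulated data, and the outcome is not given here.

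Named genes were, leaving out predicted genes and pseudogenes, the 12 higher and 12 lower genes with the smallest edgeR p among those without overlap in CPM, up to 3 members per list, up to 6 genes per time pattern, and Cxcl10, Lrg1, Timp1, Nr1d1, Angpt2, Mki67, Top2a and H2-K1. Genes called by the share test and the other genes were added after their values had been seen, as were Clock, Arntl, Dusp1 and Sgk1. Alternatives were DESeq2 1.42.0 and its size factors, no filter, the deposited log10 values, equal weight per cell, days 1.5 and 3.5 alone, a replicate block, leaving out the top cell of each gene, each class and each library. The share test, its alternatives and the sort-day term were chosen after seeing the data. Deviations of mice with the same replicate number correlated at -0.067, -0.0983 and 0.181, so the numbers were not taken to pair mice. The labels do not tie mice to replicate numbers, which were assigned here in the order of the mouse names within a day, so that which mice share a number is assumed. Coordinates follow GENCODE vM21 on GRCm38. A result of 1 named gene is not reported here.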

Additional observations from a re-analysis of the deposited data

Results flagged for a closer look

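Within the 4 mice of day 0, 6 of 116 groups of values checked had 1 mouse far from the others by Dixon's criterion, where chance gives about 1 in 20. The mouse m4 had the highest share of cells with Per2, at 8.80% against 3.61% in the next mouse. It also had the highest share with Btg2, an antiproliferative gene, at 34.6% against 28.8%. In summed reads m4 held 932 CPM of Hbb-bs against 146 CPM and 127 CPM of Dbp against 27.7 CPM. The mouse m1 held 158 CPM of Sdf2l1 against 102 CPM in the next mouse, and 407 CPM of Col4a2, where the next lowest mouse held 676 CPM. The groups of 3 mice on days 1.5 and 3.5 are too small for this criterion.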

How the results depend on the processing

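Between day 3.5 and day 1.5, DESeq2 called 124 genes and edgeR on gCaps 1, against 0 in the edgeR test. The share test, which called 10, called 6 over all reads, 6 with libraries centred, 0 with the sort-day term, 5 in gCaps, 2 in aCaps, and 4 to 88 when 1 library was left out. For day 1.5 against day 0, DESeq2 called 355 genes, and edgeR 0 to 1 without 1 library. The share test called 78 over all reads, 17 with the sort-day term, 0 in aCaps and 15 to 118 without 1 library, against 40. For day 3.5 against day 0, DESeq2 called 474 genes and edgeR 0 to 1 without 1 library. The share test called 154 with libraries centred, 24 with the sort-day term, 10 in aCaps and 29 to 889 without 1 library, against 436. For day 1.5 and day 3.5 against day 0, limma on mean log10 values called 48 and 22 genes, limma on mean CPM per cell 2 and 1, edgeR without the top cell of each gene 2 and 4, and edgeR on gCaps 2 and 1. The replicate block over 6 libraries gave 37 calls by share and 0 by edgeR. Since the numbers do not pair the mice, nothing is read from it.

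The log2 fold change from day 1.5 to day 3.5 changed sign for Hist1h2ap in aCaps (-1.76), Cdkn2b in gCaps (1.74), Ednrb with the sort-day term (0.11), Gpx3 on mean CPM per cell (0.029), and H2-K1 on mean log10 values (-0.21) and in aCaps (-0.047). For Lrg1 it ranged from -0.17 to 1.61 without 1 library. The difference in large-vessel share ranged from -1.51 to 0.617 points and that in detected genes per cell from -67.8 to 369.7. In 651 other cases the log2 fold change kept its direction and its side of the threshold. In 12 cases a named gene that edgeR had not called became called. DESeq2 called Nr1d1, Nr1d2, Zbtb16, Klf9, Txnip, Baiap2, Smad2 and Tpm4 as higher and Dph3, Neurl3 and Sirt3 as lower on day 3.5, and edgeR on gCaps called Nr1d1. The cause of these changes was not tested. Few cells stand behind some values, since Cxcl10 and Mki67 were read in 36 and 12 cells on day 1.5.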
